A study of Mus musculus with 10 samples.

Results

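Immediate early genes are transcribed within minutes of a stimulus, without new protein synthesis. A fixed list of 10 of them, Fos, Fosb, Jun, Junb, Egr1, Egr2, Atf3, Ier2, Nr4a1, and Btg2, was followed through RNA-seq libraries of 3 mouse skeletal muscles. The genes were chosen by name, and each was matched to 1 Ensembl identifier with a GRCm38 annotation, so that the list is 10 of the 16112 genes in the count tables. The question was whether these genes differ more between muscles than between libraries of the same muscle. The muscles were extensor digitorum longus (EDL, n = 3), a fast muscle of the lower leg, psoas (n = 3), a fast muscle of the trunk, and soleus (n = 4), a slow postural muscle of the calf. Every library came from a mouse of Wild type genotype from a B6C3Fe a/a-Ttnmdm/J colony founded with heterozygous animals, and the labels name no treatment. EDL 1, psoas 1, and soleus 1 came from mice of 42 days, EDL 2 and psoas 2 from mice of 54 days, EDL 3, psoas 3, soleus 2, and soleus 4 from mice of 44 days, and soleus 3 from a mouse of 32 days. The 42-day and 54-day mice were labelled male and the 44-day mice female, and the sex of the soleus 3 mouse was not given. The mice were killed with isoflurane, and the tissue was left over from animals of another study. By the 7 animal codes in the labels, psoas 1 and soleus 1 share a mouse, as do EDL 3 and soleus 2, and psoas 3 and soleus 4, so that the libraries are not all independent animals. The study's methods give fewer mice than there are codes, so that some codes may be of the same mouse, and which was not stated.

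The protein products of Fos, Fosb, Jun, and Junb pair with each other through leucine zippers to form the transcription factor AP-1. Egr1 and Egr2 are zinc finger transcription factors, Atf3 is a stress-induced member of the ATF/CREB family, Nr4a1 is an orphan nuclear receptor, Btg2 is an antiproliferative protein that recruits the mRNA deadenylation machinery, and Ier2 is a short nuclear protein. Signals reach these genes through factors that are already in the cell, among them CREB, which binds the cAMP response element (TGACGTCA, or the shorter TGACG), and serum response factor with its cofactors. In skeletal muscle the genes are known to respond to contraction, stretch, injury, and β-adrenergic signals, and their mRNAs are short-lived.

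The 250 bases before the RefSeq transcription start (GRCm38.p6) are shown for the AP-1 genes Fos, Fosb, and Junb, whose highest library was soleus 3 in soleus, and for Nr4a1 and Btg2, which were not highest there. Jun, also an AP-1 gene and highest in soleus 3 among the soleus libraries, has a window that is not printed and holds no TGACG. Of the 10 genes, 8 were matched to RefSeq windows, all but Egr1 and Ier2. Capitals mark TGACG on either strand (CGTCA on the lower strand) and, in Btg2, the full TGACGTCA. The windows are chr12:85473640-85473889 on the plus strand for Fos, chr7:19310046-19310295 on the minus strand for Fosb, chr8:84978749-84978998 on the minus strand for Junb, chr15:101266596-101266845 on the plus strand for Nr4a1, and chr1:134079156-134079405 on the minus strand for Btg2. The Nr4a1 window lies within the longer span of the gene in GENCODE M21, which begins upstream of it at position 101254269.
Fos: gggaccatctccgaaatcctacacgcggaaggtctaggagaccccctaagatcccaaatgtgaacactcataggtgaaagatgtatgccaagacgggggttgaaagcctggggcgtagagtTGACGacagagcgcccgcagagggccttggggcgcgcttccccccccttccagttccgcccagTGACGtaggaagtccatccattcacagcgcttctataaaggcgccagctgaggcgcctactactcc
Fosb: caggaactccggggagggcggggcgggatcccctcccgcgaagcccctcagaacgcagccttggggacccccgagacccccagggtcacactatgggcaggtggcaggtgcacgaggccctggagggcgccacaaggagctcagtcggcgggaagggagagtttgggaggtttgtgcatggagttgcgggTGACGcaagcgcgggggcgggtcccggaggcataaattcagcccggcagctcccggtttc
Junb: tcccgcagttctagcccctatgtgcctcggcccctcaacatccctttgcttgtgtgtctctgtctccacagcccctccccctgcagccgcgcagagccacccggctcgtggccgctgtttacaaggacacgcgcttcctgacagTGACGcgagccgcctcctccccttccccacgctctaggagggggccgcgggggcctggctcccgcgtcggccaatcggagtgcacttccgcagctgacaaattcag
Nr4a1: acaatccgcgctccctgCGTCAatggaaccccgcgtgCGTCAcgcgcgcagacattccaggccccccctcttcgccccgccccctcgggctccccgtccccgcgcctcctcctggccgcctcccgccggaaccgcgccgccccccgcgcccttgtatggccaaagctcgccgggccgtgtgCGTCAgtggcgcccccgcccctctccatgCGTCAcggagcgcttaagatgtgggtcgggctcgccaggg
Btg2: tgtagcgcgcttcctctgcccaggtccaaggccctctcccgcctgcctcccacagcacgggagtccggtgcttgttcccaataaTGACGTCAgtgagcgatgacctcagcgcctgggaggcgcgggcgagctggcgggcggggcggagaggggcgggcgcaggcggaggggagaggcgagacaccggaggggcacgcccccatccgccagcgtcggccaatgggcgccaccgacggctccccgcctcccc
Positions are given from the start, with -1 as the base before it. Fos holds TGACG at -129 and -66, and a TATAAA at -33. Fosb holds 1 copy at -60, Junb 1 at -106, and Nr4a1 4 at -233, -213, -69, and -40. Btg2 holds TGACGTCA at -166, a match that counts as TGACG on both strands. Of 32851 RefSeq windows of the same kind (250 bases before to 50 after the start, both strands searched), 20.8% hold TGACG, 1.79% hold TGACGTCA, and 13.6% hold TATAAA. In the other matched windows TGACG occurs in Atf3, at -7, and in 3 of the 5 windows of Egr2, while the Jun window has none. The CArG box bound by serum response factor occurs in 4 of the 5 Egr2 windows and in 1.63% of all windows, and TGANTCA, the AP-1 site, in no window of the 8 matched genes and in 7.81% of all. A letter match is a description and does not show that a factor binds there.

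Total counts per library were 15016122 to 47825953 in EDL, 13820086 to 50431713 in psoas, and 12737971 to 26848423 in soleus. The slow-fiber myosin Myh7 was at 6836 to 13570 normalized CPM (CPM, counts scaled by the library total after TMM normalization) in soleus and at 117 or less elsewhere, and the fast myosin Myh4 was at 38370 or more in EDL and psoas and at 1692 or less in soleus. The 4 libraries of 44-day female mice were also among the 6 whose reads were not trimmed, so that age, sex, animal, and, between EDL 3 or psoas 3 and the other libraries of their muscle, read trimming cannot be told apart. Soleus libraries were all untrimmed. In the study's supplement, the RNA integrity number, a score of RNA quality, was higher in every EDL library than in any psoas or soleus library. Among the soleus libraries it was lowest in soleus 3. Sequencing took several runs, and the run of each library was not given. In whole muscle, more RNA per cell and more cells of an expressing type cannot be told apart.

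Of the 10 genes, Nr4a1 alone passed the test between muscles. The test was edgeR's quasi-likelihood test over all 16112 genes, and calls needed a fold change over 2 and an adjusted p (Benjamini-Hochberg) below 0.01. Nr4a1 was the single member called in soleus vs psoas, where it was lower in soleus, beside 5.69% of all genes (2.99% higher and 2.71% lower in soleus). Of the 10, 0 were called in psoas vs EDL, beside 2.11% of all genes (0.54% higher and 1.57% lower in psoas). In soleus vs EDL 0 were called as well, beside 5.77% of all genes (3.59% higher and 2.18% lower in soleus). At an unadjusted p under 0.05 there were 8 members in psoas vs EDL (29% of all genes), 2 in soleus vs EDL (35%), and 5 in soleus vs psoas (28.4%). DESeq2 called 1 member in psoas vs EDL (Btg2), 1 in soleus vs EDL (Nr4a1), and 3 in soleus vs psoas (Nr4a1, Btg2, and Atf3). In the same comparisons it called 1094, 1520, and 1383 of the 16112 genes, more than edgeR in each. A joint test of any difference among the muscles at the same adjusted p called Nr4a1 alone, beside 10.9% of all genes.

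**Figure D1:**
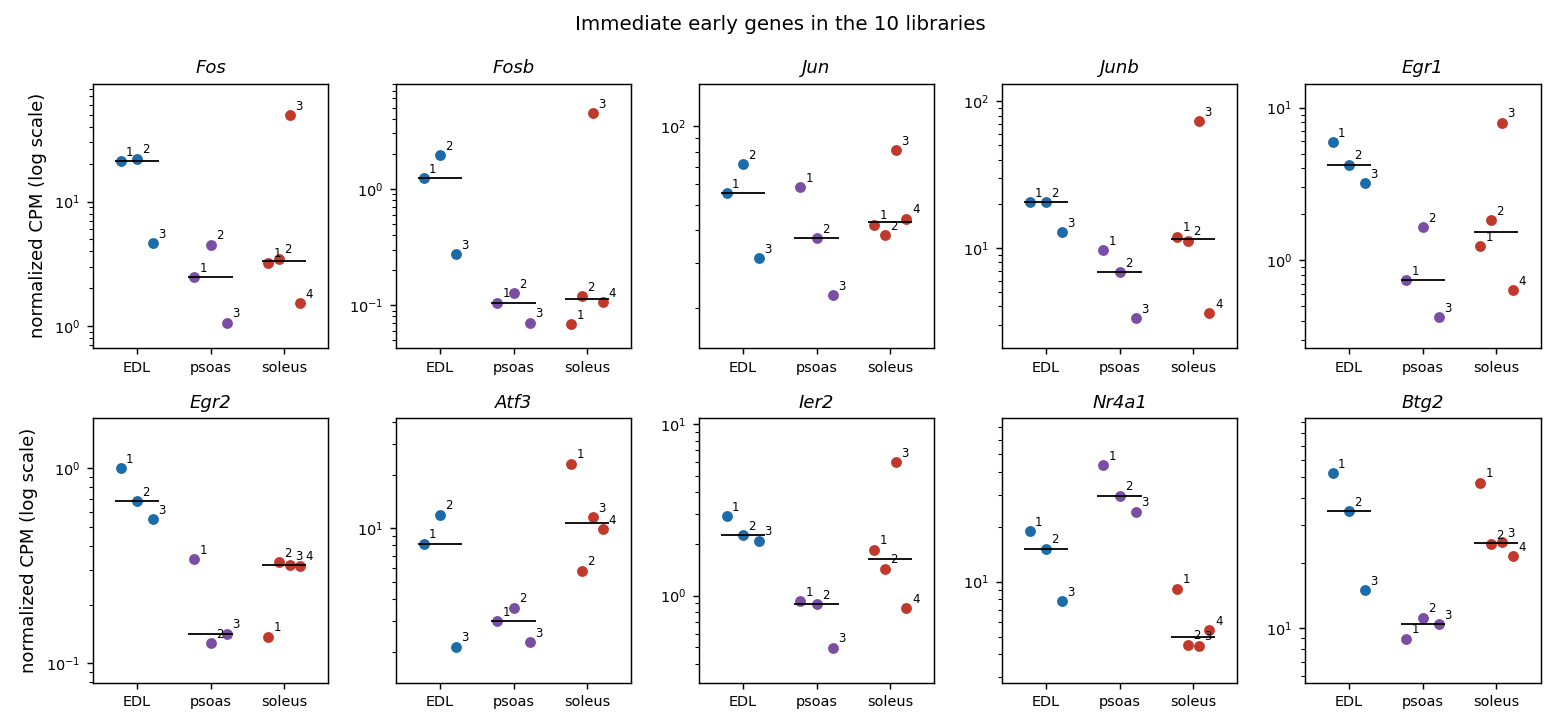
Normalized CPM of each gene on a logarithmic axis, with 1 point per library, numbered by replicate, and a black line at the median of each muscle. Soleus 3 lies far above the other soleus libraries in Fos, Fosb, Junb, Egr1, and Ier2, EDL 3 is the lowest EDL library in all 10 genes, and the muscles separate fully between psoas and soleus in Nr4a1, Atf3, and Btg2.

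Nr4a1, a receptor that acts on genes of glucose and lipid use in muscle, was highest in psoas and lowest in soleus. Its normalized CPM was 43.59, 29.61, and 24.15 in psoas 1 to 3, 18.92, 15.13, and 7.799 in EDL 1 to 3, and 9.169, 4.516, 4.466, and 5.436 in soleus 1 to 4. Psoas lay above every library of the other muscles, while EDL and soleus overlapped through EDL 3 and soleus 1. The mean was 32.45 ± 10.03 in psoas, 13.9 ± 5.65 in EDL, and 5.90 ± 2.23 in soleus (SD). The difference between soleus and psoas was -2.47 on the log2 scale (SE 0.34), with an adjusted p of 0.000839 in edgeR's quasi-likelihood test. It was called under all 22 alternative settings, with adjusted p between 2.33e-10 and 0.00415. In mice that gave both muscles, psoas 1 stood at 43.59 against 9.169 in soleus 1, and psoas 3 at 24.15 against 5.436 in soleus 4. EDL lay between the other muscles: psoas vs EDL was 1.21 (SE 0.35, adjusted p 0.0491) and soleus vs EDL -1.26 (SE 0.33, adjusted p 0.0245), and neither passed. Soleus vs EDL passed without EDL 3 (-1.54, adjusted p 0.00577), and psoas vs EDL passed with sex as a covariate, in a fit that drops soleus 3 (1.24, adjusted p 0.00255). The related receptors Nr4a2 and Nr4a3 were not called in any of the comparisons.

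Fos, the AP-1 subunit after which the family is named, was at 21.06, 22.05, and 4.614 normalized CPM in EDL 1 to 3, at 2.454, 4.502, and 1.062 in psoas, and at 3.216, 3.469, 49.2, and 1.531 in soleus. EDL was above psoas in every library, but soleus held both the highest library of the series and one of the lowest. Psoas vs EDL was -2.58 (SE 1.17, adjusted p 0.17). Fosb, a close relative, had few reads: 53, 103, and 5 in EDL, 4, 2, and 1 in psoas, and 1, 4, 56, and 2 in soleus. In normalized CPM these were 1.238, 1.941, and 0.2746 in EDL, 0.07081 to 0.1268 in psoas, and 0.06842, 0.1196, 4.466, and 0.1056 in soleus. Over the summed reads, the ratio of psoas to EDL was 0.054 (95% interval 0.0214 to 0.114 for counting error only), while the fitted difference of -3.48 had an SE of 1.54 and an adjusted p of 0.16. The counting interval of Fosb did not include 1, whereas the test, which takes in the spread between libraries, did not pass.

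Jun differed least between the muscles. Its normalized CPM was 55.39, 71.35, and 31.14 in EDL, 58.45, 37.22, and 22.52 in psoas, and 41.87, 38.25, 81.02, and 44.23 in soleus, so that all 3 muscles overlapped. The difference was -0.42 in psoas vs EDL (SE 0.39, adjusted p 0.528) and -0.04 in soleus vs EDL (SE 0.37, adjusted p 0.952). Junb was at 20.48, 20.56, and 12.8 in EDL, at 9.684, 6.848, and 3.328 in psoas, and at 11.91, 11.22, 73.28, and 3.589 in soleus. Every EDL library was above every psoas library, with a difference of -1.42 (SE 0.84, adjusted p 0.289). Jun overlaps the antisense gene Junos, and Junb overlaps exons of Prdx2 on the other strand. The strand setting of the counting was not given, so the counts of both are uncertain to that extent. Prdx2, like Junb, was highest in soleus 3 among the soleus libraries (201.5 against 134.8 to 182.6), and its part in the Junb count was not tested.

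Egr1 was at 5.931, 4.221, and 3.186 normalized CPM in EDL, at 0.7388, 1.649, and 0.4248 in psoas, and at 1.232, 1.824, 7.974, and 0.6334 in soleus. Psoas was below EDL in every library, by -2.27 (SE 0.80, adjusted p 0.0889). Egr2, also known for its role in myelinating Schwann cells, was at 1.004, 0.6784, and 0.5492 in EDL, at 0.343, 0.1268, and 0.1416 in psoas, and at 0.1368, 0.329, 0.319, and 0.3167 in soleus. It is the one gene of the list for which EDL was above every library of both other muscles. The differences were -1.72 for psoas (SE 0.52, adjusted p 0.0548) and -1.41 for soleus (SE 0.47, adjusted p 0.0581). These rest on 89 reads in EDL, 17 in psoas, and 23 in soleus. The ratio of summed CPM was 0.237 for psoas to EDL (95% counting interval 0.132 to 0.401) and 0.39 for soleus to EDL (0.235 to 0.623).

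Atf3 was highest in soleus, at 23.2, 5.772, 11.56, and 9.87 normalized CPM, against 2.982, 3.551, and 2.266 in psoas and 8.197, 11.91, and 2.142 in EDL. All soleus libraries were above all psoas libraries, by 2.09 (SE 0.57, adjusted p 0.0303), short of the threshold. Btg2 had the same order between these muscles, at 47.21, 24.43, 25.04, and 21.48 in soleus and 8.919, 11.16, and 10.41 in psoas, with a difference of 1.54 (SE 0.39, adjusted p 0.0221). In EDL, Btg2 was at 52.05, 34.86, and 14.99, also above psoas throughout, with a difference of -1.75 in psoas vs EDL (SE 0.41, adjusted p 0.0216). Without EDL 3, Btg2 passed in both comparisons, at -2.10 for psoas vs EDL (adjusted p 0.0031) and 1.54 for soleus vs psoas (adjusted p 0.00521), and so did Atf3 in soleus vs psoas (2.09, adjusted p 0.00913). That library is not part of soleus vs psoas, where both differences stayed the same. The fit shares 1 estimate of the spread over the 3 muscles, so that dropping EDL 3 changes it there too. Psoas vs EDL then called 963 of all genes, against 340 with all 10 libraries. Ier2 was at 2.896, 2.243, and 2.087 in EDL, 0.9236, 0.8877, and 0.4957 in psoas, and 1.847, 1.436, 5.981, and 0.8445 in soleus. It was lower in psoas than in EDL in every library, by -1.61 (SE 0.61, adjusted p 0.107).

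**Figure D2:**
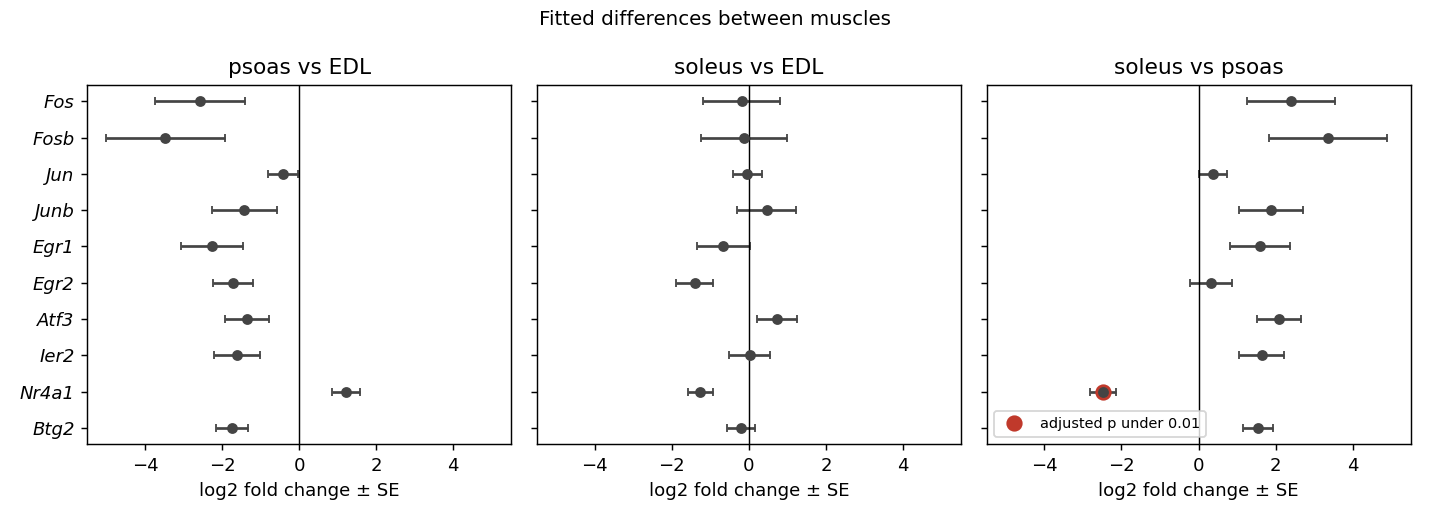
Log2 fold change of each gene with its standard error in the 3 comparisons, from edgeR's fit over all 10 libraries. Only Nr4a1 in soleus vs psoas, marked in red, passed the test. In psoas vs EDL 9 of the 10 genes lie left of 0, and in soleus vs EDL the 4 AP-1 genes, Egr1, Ier2, and Btg2 lie within 1 SE of 0.

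In psoas vs EDL the direction was shared although no gene passed. Of the 10 genes, 9 had a negative fold change, and the median over the list was -1.67, against 0.00809 over all genes. The exception was Nr4a1. Libraries of the 2 muscles did not overlap in 8 of the 10 genes: Fos, Fosb, Junb, Egr1, Egr2, Ier2, and Btg2 were lower in psoas, and Nr4a1 was higher. Among all genes, 29.6% did not overlap, 16.3% lower in psoas and 13.4% higher. In the trimmed libraries, EDL 1 and 2 against psoas 1 and 2, which are also the male ones, 9 of 10 genes were lower in psoas, and Fos differed by -2.63 on the log2 scale of the mean CPM. In the single untrimmed and female library of each muscle, EDL 3 against psoas 3, 8 of 10 were lower, and Fos differed by -2.12. With sex as a covariate, in a fit that drops soleus 3, 6 genes passed in psoas vs EDL: Fos (-2.55, adjusted p 0.00323), Fosb, Egr1, Ier2, Btg2, and, upward, Nr4a1. The same fit called 865 of all genes, against 455 without soleus 3 and without the covariate and 340 with all 10 libraries. With read trimming as the covariate, which splits the EDL and psoas libraries in the same way and keeps soleus 3, no gene of the list passed in psoas vs EDL.

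Markers of some other cells were also lower in psoas. The summed normalized CPM of 7 tendon markers was 680.9 to 772.4 in EDL and 30.71 to 81.67 in psoas, and all 7 were called lower in psoas. Of the 8 fibroblast markers, 3 were called lower in psoas (sums of 2737 to 4272 in EDL and 896.9 to 1342 in psoas), and of the 10 macrophage markers, 1 (131.5 to 348.7 and 55.02 to 146.4). The other 5 fibroblast and 9 macrophage markers were not called, although all members of both lists had a negative fold change. In the other lists no marker was called. Most members were lower in psoas for endothelium (8 of 9), smooth muscle (6 of 6), slow fiber (7 of 8, median -2.24), satellite cell (4 of 6), and neutrophil (4 of 5). Most were higher for erythroid (5 of 5, median 0.784), adipocyte (5 of 7, median 0.18), Schwann (4 of 6, median 0.268), and fast fiber (8 of 8, median 0.348). No marker of these lists was at 0 in all libraries of a muscle. Their part in the lower immediate early genes of psoas was not tested, nor was that of RNA integrity or sequencing run.

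In soleus vs EDL the list had no common direction, with 7 negative and 3 positive fold changes and a median of -0.15, against -0.05 over all genes. Egr2 alone did not overlap, lower in soleus, against 29.5% of all genes (15.2% higher and 14.3% lower in soleus). In soleus vs psoas, 9 of 10 were positive with a median of 1.62 (0.02 over all genes), and Atf3, Btg2, and Nr4a1 did not overlap (25.8% of all genes, 13.9% higher and 11.9% lower in soleus). In both comparisons the differences of Fos, Fosb, Egr1, and Junb depended on soleus 3. Those of Nr4a1, Btg2, and Atf3 in soleus vs psoas did not. With any 1 library left out, they ran from -2.76 to -2.22, 1.22 to 1.67, and 1.61 to 2.34. Without soleus 3, the soleus vs psoas difference dropped from 2.39 to 0.01 for Fos and from 3.36 to -0.03 for Fosb. Without it, soleus vs EDL became -2.59 for Fos (adjusted p 0.0221), -3.54 for Fosb (0.0108), -1.88 for Egr1 (0.027), and -1.07 for Junb (0.134), and Fosb passed the joint test of any difference. Soleus 1, 2, and 4 thus stood near the psoas libraries in these genes.

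**Figure D3:**
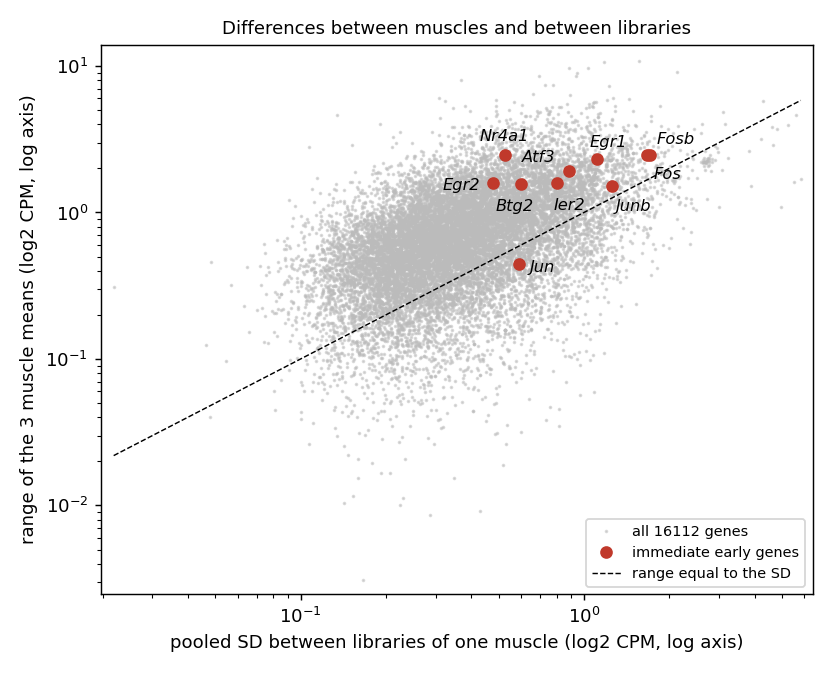
Range of the 3 muscle means against the pooled SD between libraries of one muscle, both in log2 CPM on logarithmic axes, for all 16112 genes in grey and the immediate early genes in red. Fos, Fosb, Junb, Egr1, and Atf3 have a larger SD than 90% of all genes, Jun is the only member below the line of equality, and Nr4a1 is the member farthest above it.

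The spread between libraries of one muscle was above the median of all genes in each of the 10, but it was far above it only in a part of the list. The pooled SD of log2 CPM had a median of 0.844 over the 10 genes and 0.361 over all genes, and 5 of the 10 exceeded the 90th percentile of all genes (0.861). It was 1.70 for Fosb and 1.66 for Fos, more than in 99% and 98.9% of all genes, then 1.26 for Junb, 1.11 for Egr1, and 0.886 for Atf3. Egr2 (0.477), Nr4a1 (0.526), Jun (0.588), Btg2 (0.598), and Ier2 (0.801) were below that percentile. The range of the muscle means was 4.69 times the SD for Nr4a1, 3.34 for Egr2, 2.62 for Btg2, and 0.752 for Jun, with a median of 2.02 over the list and 1.82 over all genes. Relative to the spread, the muscle means of the list thus differed about as much as those of the median gene. The biological coefficient of variation estimated by edgeR lay above the trend at the same abundance in 9 of the 10 genes, at 0.876 for Fos where the trend was 0.248. Egr2 was the exception (0.326 and 0.464). Without soleus 3, the pooled SD was 1.01 for Fos, 0.79 for Fosb, and 0.753 for Junb, and the median of the list was 0.682. No value over all genes is given for that setting.

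**Figure D4:**
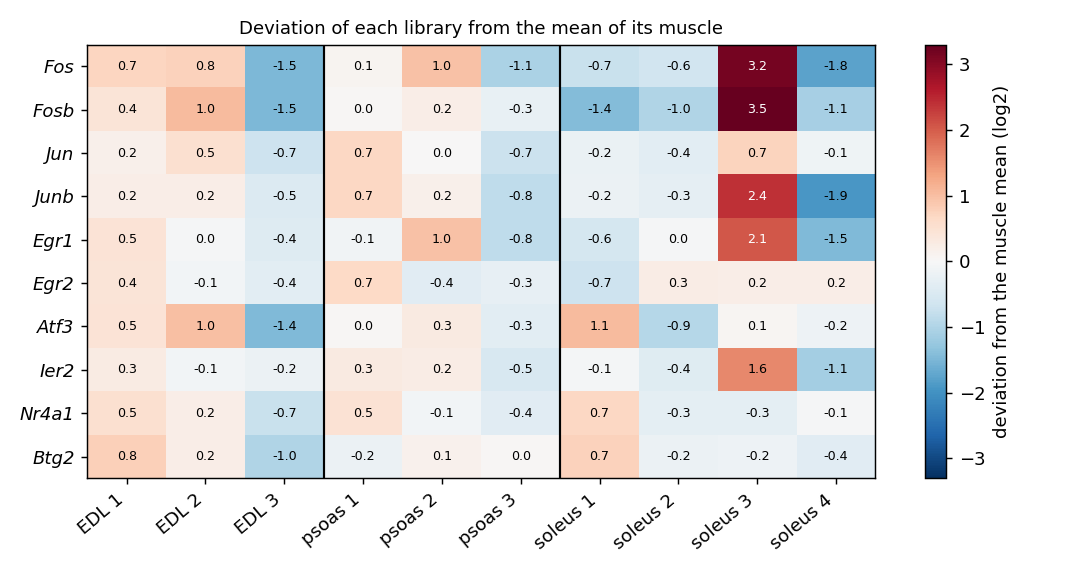
Deviation of each library from the mean of its muscle in log2 CPM, with genes in rows and libraries in columns, red above and blue below the mean. Soleus 3 is 1.6 to 3.5 above its muscle mean in Fos, Fosb, Junb, Egr1, and Ier2 but not in Atf3, Nr4a1, or Btg2, and EDL 3 is below its muscle mean in all 10 genes.

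Soleus 3, from the youngest mouse, was the highest soleus library in 6 of the 10 genes (28.3% of all genes were highest there). It stood 45.6 times above the mean of the other soleus libraries in Fosb, 17.97 times in Fos, 8.23 in Junb, 6.48 in Egr1, 4.35 in Ier2, and 1.95 in Jun. In contrast, it was the lowest soleus library in Nr4a1, and between the others in Egr2, Atf3, and Btg2. The other immediate early genes did not share this place. Of 25 measured transcription factors, 5 were highest there (20%) and 6 lowest, and of 35 measured effectors, 12 were highest (34.3%) and 9 lowest, shares near those of all genes, with median differences from the other soleus libraries of -0.11 and 0.05 on the log2 scale. Examples in both directions were picked with their values in view. High in soleus 3 were Socs3, a feedback inhibitor of cytokine signaling (7.336 against 0.4222 to 1.525), Zfp36, which destabilizes mRNAs (15.47 against 2.333 to 4.105), and the phosphatase gene Dusp1 (38.91 against 13.52 to 15.94). Low there were Ccn2 (6.698 against 13.94 to 34.99), Trib1 (1.914 against 4.698 to 9.032), and the kinase gene Sgk1 (28.07 against 32.24 to 131.5). The library also stood apart in clock genes, with Arntl at 39.63 against 1.574 to 10.77 in the other soleus libraries and Dbp at 4.067 against 13.99 to 21.35, both chosen after their values were seen. The adipocyte markers were highest there in 6 of 7 (a summed normalized CPM of 312.3 against 151.1 to 224.7). Tendon markers were lowest there in 6 of 7 (108.5 against 230.3 to 456.1), and satellite cell and smooth muscle markers in 5 of 6 each. Schwann markers were highest in 3 of 6 and lowest in 2. The summed heat shock genes were at 2004 against 1322 to 1818, with Hspa8 alone at 1098 against 623.7 to 915.3. Of these 12 genes, 4 were highest there and 0 lowest, and Hspa1a and Hspa1b lay between the other soleus libraries. Soleus 3 was the shallowest library, with 12737971 counts. The part of age, animal, clock phase, adipose and other tissue, RNA integrity, and depth in these levels was not tested.

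EDL 3 was the lowest EDL library in all 10 genes, where 42.2% of all genes were lowest. Other immediate early genes shared this place in part. Of 25 transcription factors, 17 were lowest there (68%) and 4 highest, and of 35 effectors, 21 were lowest (60%) and 7 highest. Their median differences from the other EDL libraries were -0.433 and -0.376 on the log2 scale. Psoas 3 was the lowest psoas library in 8 of the 10 (32.4% of all genes), and soleus 4 the lowest soleus library in 5 (18.5% of all genes). In each muscle, the library that was most often lowest came from a 44-day female mouse. Soleus 2, from the same animal code as EDL 3, was below its muscle mean in 9 genes. In this pair 9 of 10 genes were on the same side of the muscle mean, in psoas 3 and soleus 4 of a second mouse 8 of 10, and in psoas 1 and soleus 1 of the third mouse 3 of 10. Soleus 3 raises the soleus mean, so that most other soleus libraries lie below it in the AP-1 genes. EDL 3 was also the lowest EDL library in all 10 macrophage markers (a sum of 131.5 against 308.9 and 348.7), in 8 of 9 endothelial markers (149.1 against 222.7 and 258), and in all 5 erythroid markers (5.767 against 39.78 and 73.28). It was lowest as well in 5 of 6 smooth muscle, 5 of 6 Schwann, and 6 of 8 fibroblast markers. Fiber markers of both kinds were high there. It was the highest EDL library in all 8 slow-fiber markers (369.1 against 77.13 and 122) and in 7 of 8 fast-fiber markers (106800 against 77800 and 74790). Tendon, adipocyte, satellite cell, and neutrophil markers were mixed. Their part in its low immediate early genes was not tested.

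Within muscles, Fos, Fosb, Junb, Egr1, and Ier2 deviated together. Over the 10 libraries, Pearson's r of their deviations from the muscle mean was 0.822 to 0.98 for the 10 pairs, with the highest value for Junb and Ier2. For the 3 pairs among Atf3, Nr4a1, and Btg2 it was 0.794 to 0.827, and between these sets -0.0653 to 0.401 over 15 pairs. The distinction between the sets rested on soleus 3. Without this library, r was 0.176 to 0.933 in the first set, 0.797 to 0.855 in the second, and 0.242 to 0.696 between them, over 9 libraries. The sets were formed after the values were seen, and the points share mice, library depth, and the normalization. Among Atf3, Nr4a1, and Btg2 the highest soleus library was soleus 1, at 47.21 normalized CPM in Btg2 against 21.48 to 25.04 in the others.

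Across all genes with a symbol and a mean of at least 1 CPM, the levels most like Fos over the 10 libraries were those of Egr1 (r = 0.952), Gm11127 (0.929), and Junb (0.925), so that 2 of its 3 nearest genes were members of the list. For Nr4a1 they were the pseudogene Gm11953 (0.967), the amino acid transporter gene Slc7a8 (0.965), and the antisense gene Gm4665 (0.959). Slc7a8 was at 1.912 to 3.483 normalized CPM in psoas, 0.6591 to 1.798 in EDL, and 0.5582 to 0.8895 in soleus. For Btg2 they were the pseudogene Gm13456 (0.967), 1110059G10Rik (0.954), and the pseudogene Gm6767 (0.944). These r values are a description over 10 libraries, and the counts of pseudogenes depend on how reads with several alignments were treated, which was not given.

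Other immediate early genes and regulators were called at shares to be read beside those of all genes. In edgeR's test these were 2.11% in psoas vs EDL, 5.77% in soleus vs EDL, and 5.69% in soleus vs psoas. At an unadjusted p under 0.05 they were 29%, 35%, and 28.4%. DESeq2 called 1094, 1520, and 1383 of the 16112 genes in these comparisons. Of 25 other immediate early transcription factors, edgeR called 0 in psoas vs EDL, where 8 had an unadjusted p under 0.05 and DESeq2 called 3, and 0 in soleus vs EDL, where these counts were 2 and 0. In soleus vs psoas 1 was called, Id3, an inhibitor of basic helix-loop-helix factors (1.502, SE 0.27, adjusted p 0.00372). Of 35 other effectors, edgeR called 1, 2, and 5 in these comparisons, and DESeq2 called 6, 5, and 9. Plk2, a polo-like kinase gene, fell in psoas vs EDL (-2.25, SE 0.35, adjusted p 0.00468) and was higher in soleus than in psoas (1.57, SE 0.34, adjusted p 0.00946). The stress-response genes Gadd45a and Gadd45b were both lower in soleus, by -1.93 and -2.20 against psoas and by -1.53 and -2.08 against EDL. Gadd45b was at 3.011, 5.563, 3.907, and 2.481 normalized CPM in soleus, 13.94, 16.11, and 18.23 in EDL, and 10.58, 28.72, and 13.1 in psoas. Every soleus library, soleus 3 included, was below every library of the other muscles, while EDL and psoas overlapped. Tob1, an antiproliferative relative of Btg2, was lower in soleus than in psoas (-1.93, adjusted p 0.0023), the opposite direction to that of Btg2 in the same libraries. Ccn2, a matricellular growth factor, was higher in soleus than in psoas (2.75, adjusted p 0.00982).

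Among 33 upstream regulators, the catalytic subunit gene of protein kinase A, Prkaca, was higher in soleus than in EDL (1.49, adjusted p 0.00578), as was the histone deacetylase gene Hdac5 (1.004, adjusted p 0.00409). The calcium/calmodulin kinase gene Camk2a was lower in soleus than in EDL (-1.58, adjusted p 0.00146) and than in psoas (-2.71, adjusted p 8.87e-05), and Camk2g (-1.20) and the serum response factor cofactor Mrtfa (-1.42) were lower in soleus than in psoas. Of 12 heat shock and stress genes, Hspb1 (1.43) and Bag3 (1.81) were higher in soleus than in EDL, and Ddit3 (1.42) higher in soleus than in psoas. Of 13 clock genes, edgeR called 0 in each of the 3 comparisons, 1 had an unadjusted p under 0.05 in each, and DESeq2 called 1 in psoas vs EDL and 0 in the others.

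Per kilobase of exon, Jun had the highest mean of the list in each muscle, at 16.5 ± 6.35 RPKM in EDL, 12.3 ± 5.66 in psoas, and 16.1 ± 6.25 in soleus (SD). In EDL it was followed by Btg2 at 12.4 ± 6.76 RPKM, Junb at 7.80 ± 1.94, and Fos at 6.76 ± 4.16, whose SDs overlap. In psoas it was followed by Nr4a1 at 9.25 ± 2.86, while Fos was at 1.14 ± 0.736. In soleus the order behind Jun was Junb at 10.9 ± 14.1, Btg2 at 10.8 ± 4.33, and Fos at 6.10 ± 9.88, and the SDs of Junb and Fos are larger than their means. Without soleus 3 this order changed to Btg2 at 11.3 ± 5.13, Atf3 at 6.01 ± 4.23, and Junb at 3.87 ± 2.01, with Fos at 1.16 ± 0.448, all behind Jun at 13 ± 0.942 (n = 3). By mean, Fosb and Egr2 were the least abundant in every muscle, at 0.219 RPKM or less. Single libraries departed from the order of the means. Btg2 was above Jun in EDL 1 (18.98 against 17.37) and soleus 1 (17.21 against 13.13), and Junb was above Jun in soleus 3 (31.85 against 25.41).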

How the data were processed

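RNA-seq counts of 3 EDL, 3 psoas, and 4 soleus libraries were analyzed. The deposited values are raw gene-wise counts: the authors prepared libraries with a stranded kit, trimmed reads of 4 libraries with Trimmomatic 0.32, aligned read pairs with TopHat2 2.1.1 to GRCm38, counted reads in R, and removed genes without at least 10 reads in at least 3 samples, a filter that all 16112 genes met when tested. The strand setting and the treatment of reads with several alignments are not given in the sources used here. Identifiers were paired with symbols through GENCODE M21 (16032 matched).

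The counts were tested with edgeR 4.0.16 (R 4.3.3, quasi-likelihood test, TMM, 1 fit over 10 libraries, no covariate, Benjamini-Hochberg adjustment over all genes). Other fits used DESeq2 1.42.0 and limma 3.58.1 (voom), other scalings, filters, and covariates, thinned counts, and 1 library left out at a time. Tables were made with Python 3.11.15. Of these fits, only the reported edgeR fit was tested on simulated data, which were drawn as independent libraries without shared mice. Log2 CPM for the spread has a prior count of 2, and its SD is pooled within muscles. Since not all libraries are separate animals, p-values measure only the spread between libraries. Intervals cover counting error only.

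The 10 genes and all lists were chosen with earlier results of these data known. The 10 genes are always named. Of the other lists, called genes are named, at most 6 per list and comparison by adjusted p. For Fos, Btg2, and Nr4a1 the 3 genes most correlated over libraries are named. Depth was 12737971 to 50431713 counts per library.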

Additional observations from a re-analysis of the deposited data

Results flagged for a closer look

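In soleus, the muscle with 4 libraries, 1 library stood apart from the other 3 by more than the 95% critical value of Dixon's ratio in 7 of the 10 genes. Soleus 3 was high in Fos (49.2 normalized CPM), Fosb (4.466), Jun (81.02), Junb (73.28), and Egr1 (7.974). Soleus 1 was low in Egr2 (0.1368, a count of 2) and high in Btg2 (47.21). Chance alone sets apart about 1 group in 20 where values are normally distributed, which was not checked for CPM. The genes share libraries, so these are not independent. The share of all genes past the critical value was not computed, so the count of 7 is not a result about the list. On the log2 scale Fosb and Egr2 alone passed the critical value. Groups of 3 libraries were not tested in this way.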

How the results depend on the processing

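Nr4a1 in soleus vs psoas was called in all 22 alternatives. The number of members called in psoas vs EDL, 0 in the reported fit, was 1 with DESeq2, 6 with sex as a covariate (a fit that drops soleus 3, whose sex is not given), and 2 at an adjusted p under 0.05. In soleus vs EDL, also 0, it was 1 with DESeq2, 1 with a replicate block, and 1 at an adjusted p under 0.05. In soleus vs psoas, 1 in the reported fit, it was 3 with DESeq2, 2 with only the 2 muscles compared, 3 with sex as a covariate, and 3 at an adjusted p under 0.05. Over all genes, calls in psoas vs EDL, soleus vs EDL, and soleus vs psoas were 340, 929, and 917 in the reported fit, 1094, 1520, and 1383 with DESeq2, 605, 371, and 566 with read trimming as a covariate, and 1233, 1853, and 1563 at an adjusted p under 0.05. In psoas vs EDL they were 153 with only the 2 muscles compared and 865 with sex as a covariate and without soleus 3.

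Without each library in turn, members called were 0 to 1 in psoas vs EDL, 0 to 1 in soleus vs EDL, 1 to 3 in soleus vs psoas, and 1 to 2 in the joint test, with the highest counts without EDL 3, and in the joint test also without soleus 3. Genes called were 61 to 963, 385 to 1511, 493 to 964, and 901 to 2694, with the highest of the first 2 ranges and the last without EDL 3. Soleus vs EDL then ran from -2.59 to 0.197 on the log2 scale for Fos, -3.54 to 0.484 for Fosb, -0.401 to 0.242 for Jun, -1.07 to 0.827 for Junb, -0.872 to 0.318 for Ier2, and -0.559 to 0.187 for Btg2, and soleus vs psoas from -0.0291 to 3.8 for Fosb. The pooled SD of Fosb ran from 0.79 to 1.86.

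Signs also turned in soleus vs EDL, at sizes that did not pass: with read trimming as a covariate to 1.46 for Fos, 1.66 for Fosb, 0.74 for Jun, and 0.367 for Btg2, with DESeq2 to 0.0359 for Fosb, with limma-voom to -0.466 for Junb and -0.478 for Ier2, with the animal as a random effect to 0.00538 for Jun, -0.439 for Junb, and -0.475 for Ier2, with sex as a covariate to -0.761 for Junb, -0.674 for Ier2, and 0.13 for Btg2, with upper-quartile normalization to -0.0746 for Ier2, and on thinned counts to -0.113 for Ier2. The cause was not tested. In psoas vs EDL no sign turned in any alternative.

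Replicate numbers are shared between muscles, but same-numbered libraries correlated from -0.234 to 0.503 in their deviations, and by the animal codes psoas 1 and soleus 1 are the only same-numbered pair of 1 mouse. The codes outnumber the mice in the study's methods, so that another pair may share a mouse, and the numbers were not taken as pairing the samples. With the replicate block, calls over all genes were 146, 586, and 539, Jun turned to 0.0984 in soleus vs EDL, and Nr4a1 passed there (-1.22, adjusted p 0.00892, edgeR).

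Fosb and Egr2 have few counts, which limits their precision, and at least 10 counts in every library leaves Fosb, Egr1, Egr2, and Ier2 untested.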
